A study of Mus musculus with 7 samples.

Results

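The Hox genes were examined in single cells of 4 mouse mammary tumor models. A gene was a member if its symbol was Hox followed by a cluster letter from a to d and a number. This selected 39 symbols in 40 of the 31053 gene rows of the count tables, since Hoxd4 has 2 rows, which were summed. HoxA holds 11 of the 39 members, HoxB 10, HoxC 9 and HoxD 9. BRCA1-null tumors carried floxed Brca1 and floxed Trp53 alleles with Cre driven by the keratin 14 promoter (K14-Cre with Brca1 F/F and Trp53 F/F), and Neu tumors carried the Neu (Erbb2) transgene under the MMTV promoter (MMTV-Neu) together with floxed FIP200 alleles. Both arose in the animals' own glands. PyMT tumors grew from FF99WT cells, a line from an MMTV-PyMT tumor with intact floxed FIP200 alleles, injected into the fourth inguinal fat pad. These 3 models had an FvB background, with FVB/NJ recipients for the PyMT cells, and were each profiled from 2 tumors, replicates A and B. The 4T1 tumor, a single library, came from the GFP-carrying 4T1 line grown the same way in BALB/C mice. Tumor cells were sorted for CD24+ cells without CD31, CD45 or Ter119. The gland in which the BRCA1-null and Neu tumors arose is not stated in the labels or methods, so the position of the gland, the transplantation and the model cannot be told apart.

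Hox genes encode homeodomain transcription factors that tell cells where they lie along the body axis. In each cluster the genes stand in the order of their action, with low paralog numbers used toward the head and high numbers toward the tail, and genes with the same number in different clusters are close relatives. The clusters are opened in sequence by retinoic acid and posterior signals, are held silent by Polycomb proteins and active by Trithorax proteins, and in adult epithelium and connective tissue part of the pattern persists.

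The libraries were 10x Chromium 3' libraries, whose unique molecular identifiers (UMIs) let every captured transcript count a single time. Cells with at least 1000 UMIs, at least 500 genes and under 20% of UMIs from mitochondrial genes were kept, which left 12168 of 13745 barcodes and between 5578911 (BRCA1-null A, 245 cells) and 37693300 UMIs (PyMT B, 1842 cells) per library. Levels are UMIs summed over the cells of a library per 1000000 UMIs of that library (CPM). They count transcripts and not bases, although the capture of different 3' ends can differ. A member with 3 UMIs stood at 0.538 CPM in BRCA1-null A and at 0.0796 to 0.166 CPM in the other 6 libraries, so low members were harder to see in BRCA1-null A. Intervals are exact 95% Poisson intervals and cover counting error only. The targeted genes were not lower throughout in the libraries labelled BRCA1-null, with Brca1 at 9.68 and 2.81 CPM in A and B and at 0.276 to 1.35 CPM in PyMT and Neu, and Trp53 at 39.1 and 25.1 CPM against 44.6 to 91.1 CPM. The deleted exons are not stated, and a 3' count outside them does not check the deletion. Barcode sequences found in more than 1 library numbered 118, and 213 of the cells kept carried one. All 10 epithelial markers had UMIs in every library, with sums of 1617 CPM (BRCA1-null A) to 20009 CPM (PyMT B). Fibroblast markers summed to 526 and 2310 CPM in BRCA1-null A and B and to between 5.41 and 36.1 CPM elsewhere, and basal markers to 488 and 2949 CPM in BRCA1-null, 654 CPM in 4T1 and at most 49.1 CPM in PyMT and Neu. Leukocyte markers summed to 4.55 to 62.1 CPM, endothelial to 0.849 to 57.4, pericyte to 2.62 to 161, Schwann cell to 2.08 to 264, skeletal muscle to 0.110 to 10.5 and adipocyte to 0 to 4.23 CPM.

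The homeodomain reads DNA with its recognition helix, and the bases that encode the center of this helix are set side by side here. The 30 coding bases were taken from GENCODE M21 transcripts (GRCm38) for 7 of the members that lead the results below. Capitals mark bases that differ from Hoxa7.
Hoxa7: aagatctggttccagaatcggcgcatgaag
Hoxb4: aagatctggttccagaatcggcgcatgaag
Hoxa5: aaAatctggttccaAaaCAggAgGatgaag
Hoxa10: aaAatctggttTcagaatcgCAgGatgaaA
Hoxb13: aCCatctggttTcagaaCcgCcgGGtCaag
Hoxc9: aaAatctggttTcagaaCcggAgGatgaag
Hoxc10: aaAatctggttTcaAaatcgCAgAatgaaA
Hoxb4 and Hoxa7, from different clusters, carry the same bases here, whereas Hoxb13 has 8 differences from Hoxa7 and Hoxa5 has 6. The differences of Hoxa5, Hoxa10, Hoxc9 and Hoxc10 leave the encoded amino acids unchanged, and of these sequences only that of Hoxb13 encodes other amino acids than Hoxa7. The stretch lies in the coding sequence and the libraries count 3' ends. Exons shared with another gene on the same strand took up 62.4% of Hoxd3, 52.3% of Hoxd4, 15% of Hoxa2, 8.7% of Hoxc10, 8.01% of Hoxa3 and 5.37% of Hoxc5, but within the last 500 exonic bases only Hoxd4 shared any (4.4%). Overlap between the 2 Hoxd4 rows was left out of these shares.

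For 4 members with high levels or a called difference, the sequence before the start site was taken from RefSeq (GRCm38.p6). The 250 bases upstream are shown 5' to 3', with capitals for TGATNNAT on either strand, the composite site of a Hox protein with its partner Pbx.
Hoxa2, chr6:52164832-52165081, minus strand: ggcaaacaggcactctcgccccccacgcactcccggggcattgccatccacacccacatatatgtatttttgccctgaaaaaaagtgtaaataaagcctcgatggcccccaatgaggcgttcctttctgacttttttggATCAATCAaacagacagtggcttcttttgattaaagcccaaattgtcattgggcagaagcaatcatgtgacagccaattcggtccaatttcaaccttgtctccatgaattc
Hoxa5, chr6:52204588-52204837, minus strand: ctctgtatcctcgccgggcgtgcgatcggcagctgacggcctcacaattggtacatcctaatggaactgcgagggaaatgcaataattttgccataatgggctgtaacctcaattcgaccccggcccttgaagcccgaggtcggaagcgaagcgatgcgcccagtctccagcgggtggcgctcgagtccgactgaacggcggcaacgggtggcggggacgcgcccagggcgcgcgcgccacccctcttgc
Hoxa7, chr6:52218574-52218823, minus strand: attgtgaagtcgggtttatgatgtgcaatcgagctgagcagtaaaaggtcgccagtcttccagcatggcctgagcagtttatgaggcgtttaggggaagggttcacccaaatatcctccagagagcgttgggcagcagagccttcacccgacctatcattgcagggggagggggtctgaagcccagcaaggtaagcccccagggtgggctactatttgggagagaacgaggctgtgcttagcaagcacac
Hoxb4, chr11:96318017-96318266, plus strand: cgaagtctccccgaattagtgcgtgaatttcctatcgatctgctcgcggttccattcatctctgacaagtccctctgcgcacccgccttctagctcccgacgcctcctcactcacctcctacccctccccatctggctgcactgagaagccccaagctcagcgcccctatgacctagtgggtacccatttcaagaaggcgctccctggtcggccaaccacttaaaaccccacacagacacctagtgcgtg
The motif occurs once in the Hoxa2 window and in none of the other windows shown. It occurs in 4 of the 24 windows listed for 22 members and in 7.68% of all 32851 windows of this length. The Hoxa5 window holds 28 CG dinucleotides, that of Hoxb4 14, that of Hoxa7 7 and that of Hoxa2 6, against a median of 12.5 over the member windows and 6 over all windows.

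The tumors used different Hox clusters, and most members were silent or close to silent in most libraries. Of the 39 members, 7 had no UMI in any library (Hoxa11, Hoxc12, Hoxd1, Hoxd3, Hoxd4, Hoxd11 and Hoxd12), 16 peaked under 1 CPM, 10 peaked between 1 and 5 CPM, and 6 reached 5 CPM or more. The overlap of the 2 Hoxd4 rows with each other was not examined, so the lack of Hoxd4 UMIs is not read as silence. Over 3 UMIs in a library were found for 27 members, namely 10 of HoxA, 8 of HoxB, 8 of HoxC and 1 of HoxD. HoxA took 2040 of the 3509 Hox UMIs, HoxB 1087, HoxC 366 and HoxD 16. BRCA1-null B had 26 members over 3 UMIs, of which 12 passed 3 UMIs nowhere else, and 4T1 had 10, of which Hoxa13 alone passed nowhere else. BRCA1-null A had 5, PyMT A 3, PyMT B 4, Neu A 1 and Neu B 2.

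**Figure D1:**
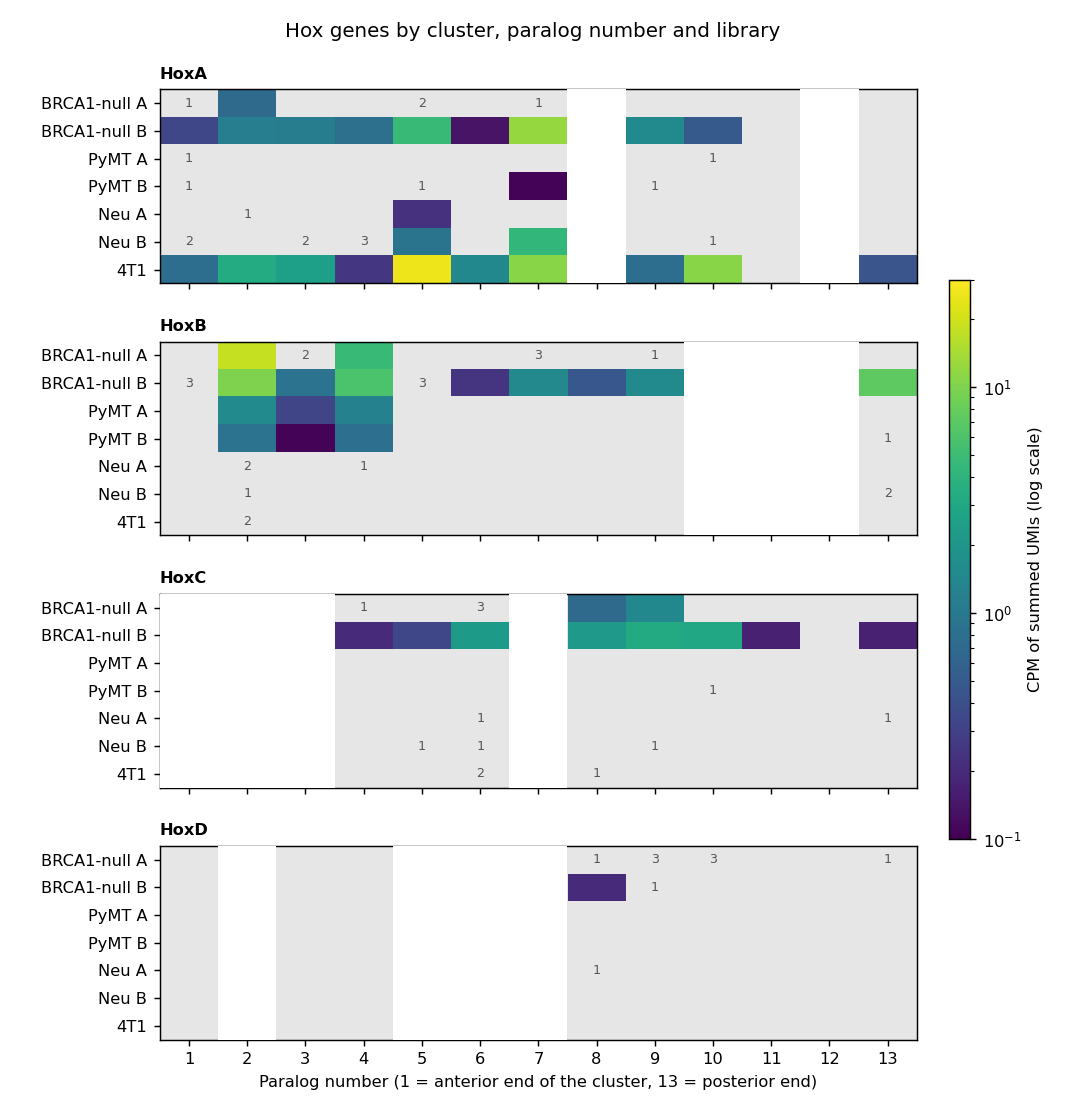
Level of each Hox gene (color, CPM of summed UMIs, log scale) by paralog number (x axis) and library (y axis) in the 4 clusters. Grey fields hold 3 UMIs or fewer (the count is printed where it is not 0) and white fields have no gene. The 4T1 row is filled in HoxA only, the PyMT rows from Hoxb2 to Hoxb4 and, with 4 UMIs in PyMT B, at Hoxa7, and the BRCA1-null B row in HoxA, HoxB, HoxC and, with 6 UMIs, at Hoxd8.

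HoxA was the cluster of the 4T1 tumor, at 57.6 CPM (interval 54.3 to 61.0), which made up 99.6% of its Hox UMIs, while its HoxB stood at 0.0990, its HoxC at 0.148 and its HoxD at 0 CPM. HoxB was the cluster of the PyMT tumors, at 3.09 CPM (2.33 to 4.01) in A and 1.80 CPM (1.40 to 2.29) in B, with 96.6% and 89.5% of their Hox UMIs. Both PyMT tumors grew from the same FF99WT line, so their agreement is not that of independent tumors. The Neu tumors differed from each other. Neu A had 12 Hox UMIs in all, or 0.542 CPM, whereas Neu B had HoxA at 5.53 CPM (4.76 to 6.38) and 96.9% of its Hox UMIs there. The BRCA1-null tumors shared HoxB, at 23.8 CPM (20.0 to 28.3) in A and 27.8 CPM (26.0 to 29.8) in B. They differed in HoxA, at 1.43 CPM in A and 22.6 CPM in B, and in HoxC, at 2.87 and 11.6 CPM. HoxD was at most 1.43 CPM in any library, in BRCA1-null A, where 8 UMIs were spread over 4 genes.

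**Figure D2:**
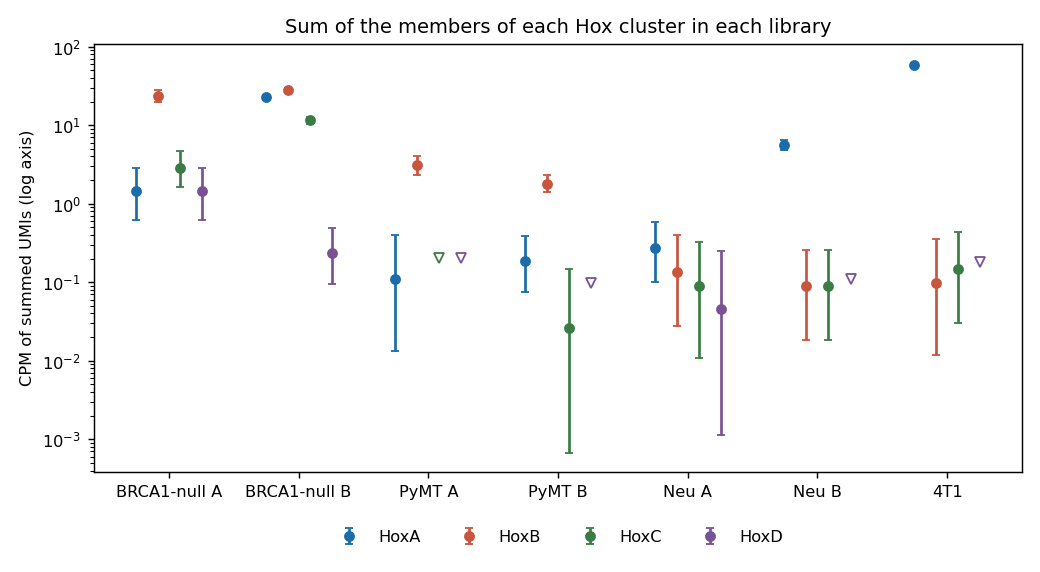
Sum of the members of each cluster (CPM of summed UMIs, log axis) in each library (x axis), with exact 95% Poisson intervals. Open triangles mark the upper limit where no UMI was counted. The 4T1 tumor is high in HoxA alone, both PyMT tumors in HoxB alone, and Neu B in HoxA, at 5.53 CPM against 0.271 CPM in Neu A.

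Hoxa5, a patterning gene of the neck and chest that is active in the lung and mammary gland, stood at 26.1 CPM in 4T1, 4.74 in BRCA1-null B, 0.891 in Neu B, 0.358 in BRCA1-null A, 0.226 in Neu A, 0.0265 in PyMT B and 0 in PyMT A. The 4T1 tumor was highest, and the 2 BRCA1-null tumors lay on either side of Neu B. Hoxa7, a gene of the middle of the cluster, stood at 12.3 CPM in BRCA1-null B, 10.9 in 4T1, 4.4 in Neu B, 0.179 in BRCA1-null A, 0.106 in PyMT B and 0 in PyMT A and Neu A. The intervals of BRCA1-null B and 4T1 overlapped, and their order is therefore not set. Neu B held 148 Hoxa7 UMIs and Neu A none, so Neu B was at least 32.4-fold higher (3 UMIs as the floor of Neu A). Hoxa10, a posterior gene needed in the uterus, stood at 11 CPM in 4T1, 0.508 in BRCA1-null B, 0.0552 in PyMT A, 0.0297 in Neu B and 0 in the other 3 libraries. HoxA levels peaked at Hoxa5 in 4T1 and at Hoxa7 in BRCA1-null B and Neu B. The 4T1 tumor had over 3 UMIs of every HoxA gene except Hoxa11, down to Hoxa13 with 9 UMIs. Hoxa2, a gene of the hindbrain and the ear, was at 3.37 CPM in 4T1, 1.15 in BRCA1-null B, 0.717 in BRCA1-null A and at most 0.0452 elsewhere.

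Hoxb2, a hindbrain gene, stood at 18.1 CPM in BRCA1-null A, 9.96 in BRCA1-null B, 1.55 in PyMT A, 0.875 in PyMT B, 0.0990 in 4T1, 0.0904 in Neu A and 0.0297 in Neu B. Hoxb4, known for its use in blood stem cells, stood at 5.93 CPM in BRCA1-null B, 4.66 in BRCA1-null A, 1.21 in PyMT A, 0.796 in PyMT B, 0.0452 in Neu A and 0 in Neu B and 4T1. For both genes the order of the models was BRCA1-null, PyMT and then Neu, with no overlap of libraries. Within BRCA1-null the Hoxb4 intervals overlapped, whereas Hoxb2 was lower in B than in A (ratio 0.550, interval 0.437 to 0.697). Hoxb3, which lies between them on the chromosome, was at 0.881 and 0.358 CPM in BRCA1-null B and A, 0.331 and 0.106 CPM in PyMT A and B, and at 0 in the other 3 libraries. Hoxb13, the most posterior gene of the cluster and a marker of prostate and hindgut, stood at 7.21 CPM in BRCA1-null B (213 UMIs), 0.0594 in Neu B, 0.0265 in PyMT B and 0 in the other 4 libraries. BRCA1-null B was therefore at least 13.4-fold higher than BRCA1-null A. Hoxb13 lies 74009 bases beyond Hoxb9, its nearest neighbor in the cluster, on chromosome 11. The genes from Hoxb9 to Hoxb5, next to that gap, were lower in BRCA1-null B than Hoxb13, with Hoxb9 at 1.49, Hoxb8 at 0.474, Hoxb7 at 1.46, Hoxb6 at 0.237 and Hoxb5 at 0.102 CPM.

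**Figure D3:**
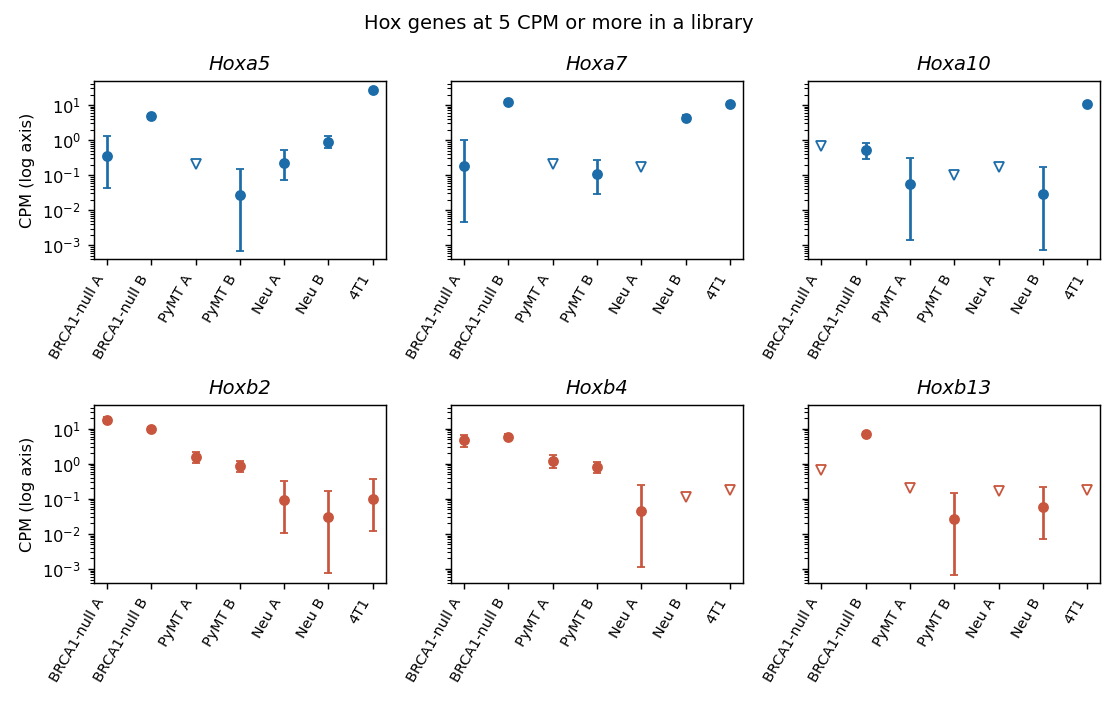
Level (CPM, log axis) in each library (x axis) of the 6 Hox genes that reached 5 CPM, with exact 95% Poisson intervals and open triangles for the upper limit where no UMI was counted. Hoxb2 and Hoxb4 fall from BRCA1-null through PyMT to Neu, Hoxa5 and Hoxa7 are high in BRCA1-null B, Neu B and 4T1, Hoxa10 is high in 4T1 and Hoxb13 in BRCA1-null B.

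HoxC was close to absent outside the BRCA1-null tumors, with at most 3 UMIs in total in any of the other 5 libraries. In BRCA1-null B the middle of the cluster led, with Hoxc9 at 3.29, Hoxc10 at 2.98, Hoxc6 at 2.24 and Hoxc8 at 2.17 CPM, genes that pattern the trunk. BRCA1-null A held 8 UMIs of Hoxc9, 4 of Hoxc8, 3 of Hoxc6 and none of Hoxc10. All 8 Hoxc9 UMIs and all 3 Hoxc6 UMIs of BRCA1-null A came from 2 cells, which had an Epcam UMI and were rich in collagen, with fibroblast markers at 28041 CPM. That sum includes Col1a2 and Col3a1, by which these cells were picked as rich in collagen. In HoxD, Hoxd9 had the highest mean CPM over libraries, from 3 UMIs in BRCA1-null A and 1 in BRCA1-null B, and Hoxd8 had the most UMIs, 8 in all with 6 in BRCA1-null B.

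By position along the clusters, anterior genes (numbers 1 to 3) made up 65.5% of the Hox UMIs in BRCA1-null A, 60.3% in PyMT A and 50.0% in PyMT B, but 21.8% in BRCA1-null B, 11.6% in 4T1 and 2.60% in Neu B. Central genes (4 to 8) made up 95.3% in Neu B, 67.2% in 4T1 and 50.3% in BRCA1-null B. Single genes held most of these shares. Hoxb2 gave 101 of the 108 anterior UMIs in BRCA1-null A, 28 of 35 in PyMT A and 33 of 38 in PyMT B. Hoxa7 gave 148 of the 183 central UMIs in Neu B. Neu A, with 12 Hox UMIs, is left out of the shares. Posterior genes (9 to 13) stood at 17.4 CPM in BRCA1-null B and 12.2 CPM in 4T1, at 2.87 CPM in BRCA1-null A, and at 0.0452 to 0.119 CPM in PyMT and Neu. The posterior signal in BRCA1-null B rested on Hoxb13, Hoxc9 and Hoxc10, and that in 4T1 on Hoxa10.

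Whether the BRCA1-null tumors differed from the other FvB tumors was tested on sums of UMIs per library with edgeR's quasi-likelihood test (13950 genes, Benjamini-Hochberg adjustment over all of them, adjusted p under 0.05). The filter asks for a minimum level in at least 2 libraries, so the test covered 9 of 39. Most of these passed the filter because BRCA1-null libraries were high. Members high in BRCA1-null B alone were not tested, such as Hoxb13 (213 UMIs in B, 0 in A) and Hoxc10 (88 and 0). Of the 9, 8 were higher in BRCA1-null than the PyMT and Neu mean (17.8% of all genes tested were higher). Lower levels were called for 0 of the 9, with none at an unadjusted p under 0.05 and none with DESeq2 (1356 of the 13950 genes were lower). The filter favors higher levels in BRCA1-null, so nothing is read from either count against its share. The mean is one of log levels, which low Neu levels pull down. Hoxb2 had a log2 fold change of 5.38 (standard error 0.48, adjusted p = 0.0011) and Hoxb4 one of 4.85 (0.62, adjusted p = 0.0033). Hoxc9 had 7.64 (0.98, adjusted p = 0.0048), Hoxc6 6.53 (1.04, adjusted p = 0.0085), Hoxa2 6.29 (1.06, adjusted p = 0.0101) and Hoxa5 4.38 (1.13, adjusted p = 0.0297). Hoxb7 (adjusted p = 0.0120) and Hoxc8 (adjusted p = 0.0102) had no UMI in any PyMT or Neu library. With 3 UMIs over those 4 libraries set as the floor, they were 48.8-fold and 72.1-fold higher, which is not a lower bound. All of these but Hoxa5 were higher in both BRCA1-null libraries than in each of the other 4. For Hoxa2, Hoxb7, Hoxc6, Hoxc8 and Hoxc9, with 0 to 2 UMIs over PyMT and Neu, this was set in advance. These members could pass the filter only through both BRCA1-null libraries. In BRCA1-null A they held 4, 3, 3, 4 and 8 UMIs. Those of Hoxc6 and Hoxc9 all came from the 2 collagen-rich cells with an Epcam UMI, so their higher level in A rests on these cells. Hoxa7 had a log2 fold change of 3.80 (standard error 1.72, adjusted p = 0.144), with 12.3 CPM in BRCA1-null B and 0.179 CPM in A. With the replicate letter as a block its adjusted p was 0.0099. Without BRCA1-null B 2 members were called, Hoxb2 and Hoxb4, without BRCA1-null A 16, without PyMT B 5 and without Neu B 4. The number of members tested differed between these fits, so nothing is read from their counts against a share of all genes. In the sums of UMIs per library, fewer cells of a type and less RNA per cell cannot be told apart.

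The same fit set PyMT against Neu. As the PyMT tumors were transplants of the same line, the spread between independent PyMT tumors is not in these p-values. Hoxb4 (log2 fold change 5.55, standard error 0.96, adjusted p = 0.0132) and Hoxb2 (4.47, 0.71, adjusted p = 0.0106) were higher in PyMT, 2 of the 9 members tested (7.5% of all genes were higher). Of the other members, 5 had 0 to 2 UMIs over the 4 PyMT and Neu libraries, entered the test through BRCA1-null and could hardly be called in either direction. The UMIs of Hoxb4 and Hoxb2 over both Neu libraries were 1 and 3, against 52 and 61 in PyMT. The ratios of PyMT to Neu were 52.0 (interval 8.93 to 2092) and 20.3 (6.63 to 101), with intervals from counting error alone. No member was called lower in PyMT by edgeR or by DESeq2 (9.38% of all genes were), from which nothing is read for those 5, and 1 member, Hoxa5, was lower at an unadjusted p under 0.05. Hoxa5 had a log2 fold change of -4.60 (adjusted p = 0.118) and Hoxa7 one of -4.89 (adjusted p = 0.217), with both Neu libraries above both PyMT libraries for Hoxa5. With the replicate block both were called lower in PyMT (adjusted p = 0.0353 and 0.0220). Neither Hoxb2 nor Hoxb4 was called without PyMT A, without Neu A or without Neu B, and without PyMT B Hoxb2 alone was called.

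The first comparison was repeated on epithelial cells, taken as cells with an Epcam UMI and with Col1a2 and Col3a1 together under 20 per 10000 UMIs, since fibroblast markers were higher in BRCA1-null than in PyMT and Neu. These cells numbered 176 and 1565 in BRCA1-null A and B and 1830 to 2298 in the PyMT and Neu libraries. Of 7 members tested 6 were higher in BRCA1-null (16.3% of the 13815 genes tested were higher). Here too members such as Hoxa2 and Hoxc8 passed the filter through BRCA1-null, so nothing is read from this count against that share. Hoxb2 had a log2 fold change of 5.45 (standard error 0.47, adjusted p = 0.0011), Hoxb4 4.94 (0.62, adjusted p = 0.0036), Hoxa2 6.14 (1.09, adjusted p = 0.0124), Hoxa5 4.57 (1.20, adjusted p = 0.0316) and Hoxb3 4.35 (1.03, adjusted p = 0.0282). Hoxc8 had an adjusted p of 0.0169, with 2 UMIs in BRCA1-null A and 19 in B. Hoxa7 reached an adjusted p of 0.142, and with the replicate block it was called (0.0217) while Hoxb3 was not (0.0590). Hoxb3 and Hoxc8 were not called with DESeq2 (adjusted p = 0.0510 and 0.0710). Hoxc6, Hoxc9 and Hoxb7 did not pass the filter in these cells, with 0, 0 and 1 UMIs in BRCA1-null A against 14, 49 and 31 in B. Fibroblast markers in these cells still summed to 129 CPM in BRCA1-null A and 641 CPM in B, and their part in the result was not tested. Hoxb2 and Hoxb4 alone were called without BRCA1-null B, without PyMT A, without PyMT B, without Neu A and without Neu B, and 16 members were called without BRCA1-null A.

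The cells of the BRCA1-null tumors were then divided by these limits, which are cuts on a scale and not cell types. Collagen-rich cells, with Col1a2 and Col3a1 at 20 per 10000 UMIs or more and no Epcam UMI, numbered 144 in BRCA1-null B, 2 in A and at most 3 in any other library, and 225 further cells in B met both limits. In BRCA1-null B 107 of 2078 cells lay within 5 per 10000 of the collagen limit. With 2 such cells in A there was no test, and the values are those of 1 tumor. HoxC was higher per UMI in the collagen-rich cells, at 53.9 CPM (41.5 to 68.9) against 5.08 CPM (4.23 to 6.05) in Epcam cells, a ratio of 10.6 (interval 7.73 to 14.5). Hoxc10 stood at 16 against 1.30 CPM, Hoxc9 at 12.6 against 1.99, Hoxc6 at 10.1 against 0.569 and Hoxc8 at 8.42 against 0.772 CPM. HoxC stood at 45.6 CPM in the cells meeting both limits (ratio to Epcam cells 8.98, 6.95 to 11.6). It stood at 27.8 CPM in the 144 cells meeting neither limit (5.48, 3.48 to 8.37), where pericyte markers summed to 1047 CPM and fibroblast markers to 2108 CPM, so higher HoxC was not confined to cells over the collagen limit. A HoxC UMI was found in 29.9% of collagen-rich cells (median depth 8743 UMIs) and in 3.64% of Epcam cells (median depth 13491 UMIs). Fibroblast markers summed to 15021 CPM in the collagen-rich cells and to 641 CPM in the Epcam cells, pericyte markers to 989 and 63.9 CPM, and epithelial markers to 369 and 7493 CPM. The fibroblast list holds Col1a2 and Col3a1 and the epithelial list Epcam, so these sums were partly set by the limits. Of fibroblast genes outside the limits, Dcn stood at 1576 against 82.7 CPM and Lum at 596 against 9.87 CPM.

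Hoxb13 had the opposite distribution, at 8.53 CPM (210 UMIs) in the Epcam cells and with no UMI among 1186967 in the collagen-rich cells, where the interval reached 3.11 CPM. Hoxa7 was at 13.9 CPM in Epcam cells and 3.37 CPM in collagen-rich cells (ratio 0.242, interval 0.0655 to 0.625), and Hoxa5 at 5.52 and 1.68 CPM (ratio 0.305, 0.0366 to 1.12). Hoxb2, at 10.7 and 8.42 CPM, and Hoxb4, at 6.46 and 5.05 CPM, had ratios of 0.789 (0.374 to 1.47) and 0.783 (0.283 to 1.74). Both were lower in the 225 cells meeting both limits, Hoxb2 at 3.65 CPM (ratio to Epcam cells 0.341, 0.162 to 0.638) and Hoxb4 at 1.46 CPM (0.226, 0.0608 to 0.590), and in the cells meeting neither limit they had ratios of 1.06 (0.524 to 1.93) and 0.958 (0.346 to 2.13). For comparison the keratin Krt14, which fibroblasts should lack, had a ratio of 0.0590 and Krt8 one of 0.0838, and a Krt14 UMI was found in 58.3% of collagen-rich cells. Hoxa9 was higher in collagen-rich cells, at 4.21 against 1.14 CPM (ratio 3.70, 1.12 to 9.72), on 5 UMIs. In BRCA1-null A the Epcam cells had Hoxb2 at 18.7 CPM and Hoxb4 at 4.79 CPM and the 65 cells that met neither limit had them at 16.2 and 4.33 CPM.

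**Figure D4:**
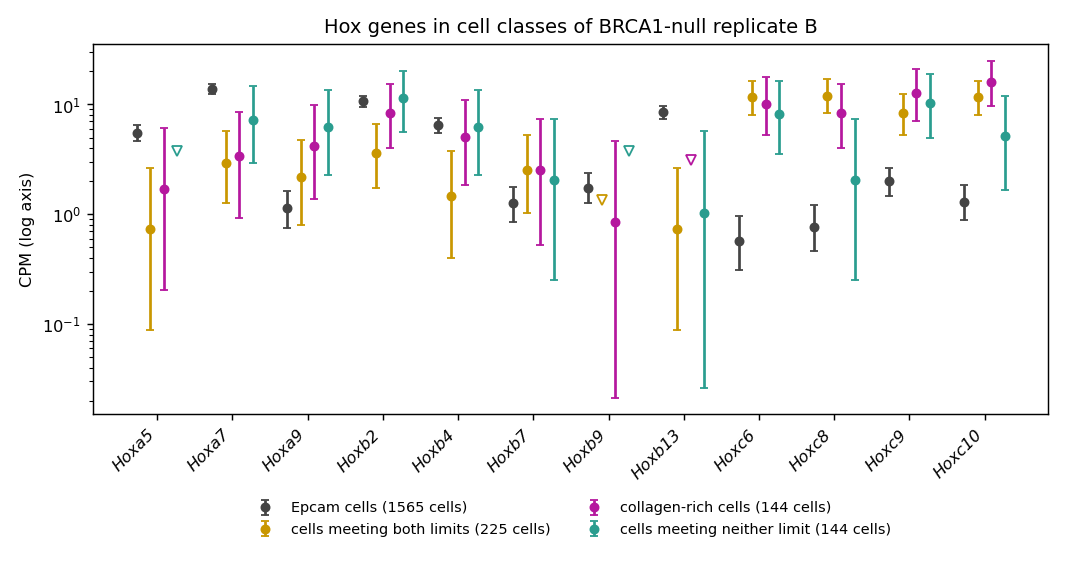
Level (CPM, log axis) of 12 Hox genes in Epcam cells, cells meeting both limits, collagen-rich cells and cells meeting neither limit of BRCA1-null B, with exact 95% Poisson intervals and open triangles for the upper limit where no UMI was counted. The 4 HoxC genes are higher in both collagen classes than in Epcam cells, Hoxb13 and Hoxa7 are higher in Epcam cells, and Hoxb2 and Hoxb4 overlap between Epcam and collagen-rich cells but are lower in cells meeting both limits.

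Counted by cells, Hoxb2 was found in 54 of 245 cells of BRCA1-null A (22.0%, exact binomial interval 17 to 27.8) and 225 of 2078 of BRCA1-null B (10.8%), against 2 of 2308 and 1 of 1997 cells in Neu A and B. Hoxa5 was found in 374 of 1751 4T1 cells (21.4%, 19.5 to 23.4), against none of 1947 PyMT A cells. Thinned to 3000 UMIs per cell, with 23 shallower cells left out in BRCA1-null A, 177 in BRCA1-null B and 66 in 4T1, the shares were 4.05% and 2.84% for Hoxb2 and 7.36% for Hoxa5. The Hoxa7 UMIs of Neu B came from 123 of 1997 cells with at most 4 in a cell, and the Hoxb13 UMIs of BRCA1-null B from 160 of 2078 cells with at most 8.

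Among the 1565 Epcam cells of BRCA1-null B the members split further, in divisions chosen after the values had been seen. In the 157 cells with a Hoxb13 UMI, Hoxa7 stood at 34.6 CPM against 10.2 CPM in the rest (ratio 3.39, interval 2.71 to 4.24) and Hoxa5 at 13.3 against 4.12 CPM (3.23, 2.23 to 4.63). Hoxb2 had a ratio of 1.86 (1.39 to 2.47) and Hoxb4 one of 1.09 (0.685 to 1.66) between the same cells, whose median depths were 22693 and 12791 UMIs. In the 25% of cells with the most Krt8, a luminal keratin, Hoxa7 was at 6.84 CPM against 16.1 CPM in the rest (ratio 0.424, 0.297 to 0.590) and Hoxb13 at 3.93 against 9.96 CPM (0.395, 0.244 to 0.610). With Krt5, a basal keratin, the ratios lay above 1, with Hoxa7 at 20.7 against 11.4 CPM (1.82, 1.46 to 2.27) and Hoxb13 at 13.2 against 6.77 CPM (1.94, 1.46 to 2.58). Krt14, another basal keratin, shared this for Hoxa7 alone, and Sparc did not share it. With Krt14 the ratio was 1.35 (1.06 to 1.71) for Hoxa7 and 1.18 (0.850 to 1.61) for Hoxb13, and with Sparc, a matrix gene, it was 0.540 (0.381 to 0.747) for Hoxa7 and 0.407 (0.243 to 0.647) for Hoxb13. Cells with an Mki67 UMI, which marks dividing cells, had Hoxb13 at 15.5 against 6.31 CPM (2.46, 1.85 to 3.26), at median depths of 25094 and 12411 UMIs. The interval of Hoxb4 held 1 for Krt8, Krt5 and Mki67, whereas for Elf5 and Wfdc18, genes of alveolar luminal cells, its ratios were 1.55 (1.11 to 2.15) and 1.60 (1.13 to 2.25). All of this is 1 tumor.

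**Figure D5:**
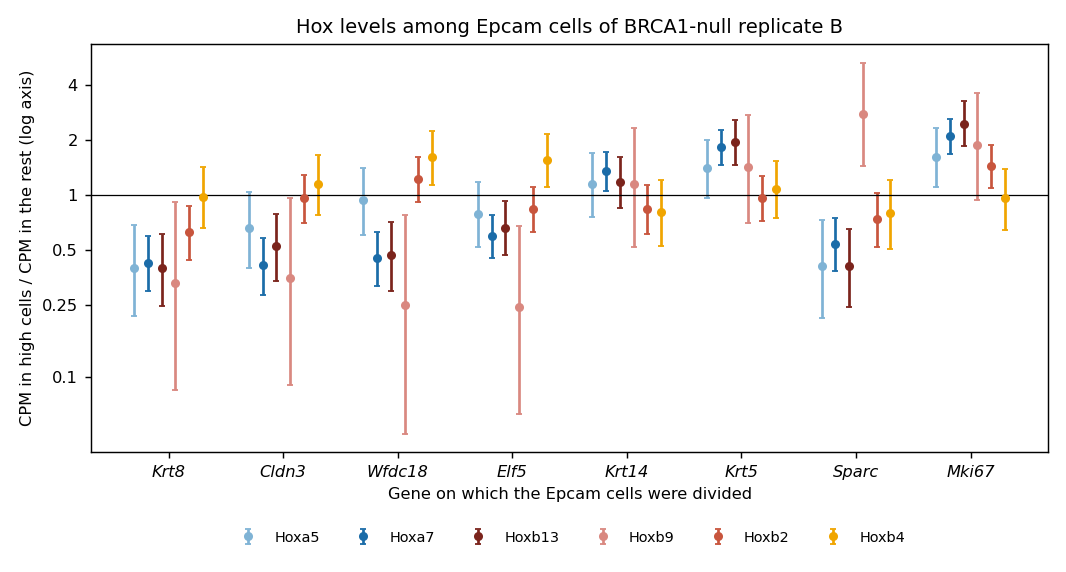
Ratio (log axis) of the CPM of 6 Hox genes between Epcam cells of BRCA1-null B that were high for the gene on the x axis (upper 25%, or cells with a UMI where fewer cells had one) and the rest, with exact 95% intervals from counting error. Hoxa7 and Hoxb13 lie below 1 for Krt8, Cldn3, Wfdc18, Elf5 and Sparc and above 1 for Krt5 and Mki67, the Hoxb13 interval holds 1 for Krt14, and Hoxb4 lies near or above 1 for the luminal genes.

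Genes that work with, upon or beside the Hox clusters were taken from fixed lists. The shares of all genes called were 17.8% higher in BRCA1-null, 16.3% higher in BRCA1-null among epithelial cells, and 7.5% higher and 9.38% lower in PyMT than in Neu. Lower in BRCA1-null were 1356 of the 13950 genes, and among epithelial cells 1299 of 13815. Listed genes near 0 in PyMT and Neu, such as Meis2 and Meox1, passed the filter through BRCA1-null. For all of these lists, nothing is therefore read from a count higher in BRCA1-null that exceeds the share of all genes. Of 9 cofactors, the homeodomain partners that help Hox proteins bind DNA, 4 had higher and 0 lower levels in BRCA1-null, 1 was lower in PyMT than in Neu, and 4 were higher in BRCA1-null among epithelial cells. Pbx3 (log2 fold change 2.93, adjusted p = 0.0089) was at 22.6 and 5.69 CPM in BRCA1-null A and B and at 0.768 to 2.32 CPM in PyMT and Neu. Meis2 (adjusted p = 0.0056) was at 1.79 and 2.64 CPM in BRCA1-null and at 0 in PyMT and Neu, and Pknox2 had a log2 fold change of 4.72 (adjusted p = 0.0090). Among 28 Polycomb genes, 5 passed as higher and 0 as lower in BRCA1-null, including Ezh2, the methyltransferase of the complex (1.27, adjusted p = 0.0074), Phc1 (1.29, adjusted p = 0.0167) and Mtf2 (1.11, adjusted p = 0.0194). Ezh2 was at 61.7 and 62.0 CPM in BRCA1-null, 59.6 CPM in 4T1 and 17.9 to 24.4 CPM in PyMT and Neu. The Polycomb count is near the 17.8% of all genes. Between PyMT and Neu 3 Polycomb genes were higher and 3 lower in PyMT, and 5 were higher in BRCA1-null among epithelial cells. Of 15 Trithorax genes 1 was higher in BRCA1-null, a smaller share than the 17.8% of all genes, namely Psip1 (1.46, adjusted p = 0.0159), in all cells and among epithelial cells, while Mllt3 (-0.74, adjusted p = 0.139) and Ash2l (0.68, adjusted p = 0.155) did not pass. Between PyMT and Neu 1 Trithorax gene was higher and 1 lower in PyMT.

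Of 19 genes upstream of Hox, among them those of retinoic acid, 12 were tested, 6 passed as higher (17.8% of all genes) and 0 as lower in BRCA1-null, with 1 higher in PyMT than in Neu, and with 6 higher and 1 lower among epithelial cells. Aldh1a1, which makes retinoic acid, had a log2 fold change of 7.73 (adjusted p = 6e-04) at 26.3 and 35.7 CPM in BRCA1-null and at most 0.347 CPM in the other 5 libraries. Cyp26a1, which degrades it, had 6.53 (adjusted p = 0.0017) at 5.02 and 4.78 CPM, and Egr2, a hindbrain regulator of Hoxb2, had 4.31 (adjusted p = 0.0033) at 38.7 and 22.4 CPM. Aldh1a3, of the same family and list as Aldh1a1, was higher in PyMT than in Neu (log2 fold change 6.64, adjusted p = 0.0030). It stood at 185 and 96.9 CPM in PyMT A and B, above the 17.6 and 32.5 CPM of BRCA1-null A and B. Of 18 listed noncoding RNAs of the clusters 9 were in the tables and 3 were tested. Hoxb3os, antisense within HoxB, was higher in BRCA1-null (5.29, adjusted p = 0.0018), also among epithelial cells, and higher in PyMT than in Neu (6.05, adjusted p = 0.0081). Its levels were 9.86 and 7.69 CPM in BRCA1-null A and B, 1.66 and 1.17 CPM for PyMT A and B, 0.0452 and 0 CPM for Neu A and B and 0.148 CPM for 4T1, in the same order of models as Hoxb2 and Hoxb4. Hoxaas3 of HoxA was at 1.98 CPM in 4T1, 1.25 in BRCA1-null B, 0.951 in Neu B and at most 0.0452 elsewhere (adjusted p = 0.176 for BRCA1-null), the libraries in which Hoxa7 was high. Hotairm1, at the anterior end of HoxA, was at 12.3 CPM in 4T1, at 6.99 and 9.25 CPM for BRCA1-null A and B, 1.55 and 3.79 CPM for PyMT A and B and 0.0904 and 1.49 CPM for Neu A and B (adjusted p = 0.0949). Neither Evx gene, the posterior neighbors of HoxA and HoxD, was tested. Of 36 other homeobox and related genes of the gland and its mesenchyme, 20 were tested, 9 were higher (17.8% of all genes) and 2 lower in BRCA1-null, 3 were higher (7.5% of all genes) and 1 lower (9.38%) in PyMT than in Neu, and 11 of 22 were higher (16.3% of all genes) and 2 lower in BRCA1-null among epithelial cells. Meox1 (8.82, adjusted p = 9.8e-04), Prrx1 (7.34, adjusted p = 0.0013) and Prrx2 (5.79, adjusted p = 0.0017), genes of mesenchyme, led this list, with Prrx1 at 11.8 and 50.0 CPM in BRCA1-null A and B and at most 0.544 CPM elsewhere.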

How the data were processed

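The authors deposited raw UMI counts per gene and barcode, made with Cell Ranger on mm10. The processing notes name versions 2.2.0 and 3.0.2 for different libraries. Sources used here do not give the version of STAR. Combined tables of several samples were not used. Cells were filtered as stated in the report, doublets were not called, and UMIs were summed per library. Sums of BRCA1-null, PyMT and Neu libraries were fitted with edgeR 4.0.16 in R 4.3.3 (TMM, filterByExpr, group as the only term, quasi-likelihood, 3 residual degrees of freedom, Benjamini-Hochberg adjustment over all genes tested). DESeq2 1.42.0, its size factors, no filter on low counts, a replicate block, other cell filters and each library left out were alternatives. The scripts were tested on simulated data. 4T1 stayed out of tests, and ratios carry exact intervals. Printed CPM are not scaled by TMM. The study sequenced biological replicates in a second batch, but the labels do not tie the replicate letters to batches. The deviation of B from A correlated between models with r = 0.0618 for BRCA1-null with PyMT, r = 0.114 for BRCA1-null with Neu, and r = 0.170 for PyMT with Neu. Each replicate is a separate tumor, but both PyMT tumors grew from the same line. The members and lists were chosen with earlier results of these data known. Named are members that were called, led a cluster or reached 5 CPM, and up to 3 genes per list with the smallest adjusted p in the first comparison. Aldh1a3 was added beside Aldh1a1. Gene positions are from GENCODE M21 (GRCm38).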

Additional observations from a re-analysis of the deposited data

How the results depend on the processing

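Across the settings tried, the count of members higher in BRCA1-null (8) ran from 2 to 16 when a library was left out, and was 17 without a filter on low counts, when 31 members were tested. Among epithelial cells (6) it ran from 2 to 16 and was 17 without the filter. For PyMT against Neu, members higher (2) ran from 0 to 2 with a library left out, and members lower (0) from 0 to 1, with 2 under the replicate block and 2 without the filter, Hoxa5 and Hoxa7. The lone sample left in a group is then assumed to vary like the others. The number of members tested also changed between settings, so nothing is read from these counts against a share of all genes. No difference of a member called in the main fits changed direction in the alternatives run. Hoxa7, called in some alternatives but not in the main fits, did change direction. Its log2 fold change for BRCA1-null went from 3.80 to -1.63 without BRCA1-null B. For PyMT against Neu it went from -4.89 to 3.83 without Neu B. Of their values for single members, 274 stayed on the same side of the threshold, 37 fell short of it and 11 passed it newly. Hoxb2 and Hoxb4 were called in every alternative of both BRCA1-null comparisons. The replicate block added Hoxa7 to the first comparison (log2 fold change 4.06) and changed no call of a member other than those given in the report. The ratio of HoxC between collagen-rich and Epcam cells stayed within its interval under the 4 limits and filters tried. As 1 tumor had too few collagen-rich cells, its fits with DESeq2, size factors, no filter and no library block were not run. Depth was lowest in BRCA1-null A, where 3 UMIs are 0.538 CPM. At that depth the levels of B would give 16 members over 3 UMIs, of which 5 had over 3 and 5 were at 0, so this gap between A and B is one that remains after scaling for depth.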

Other observations

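Among 1703 Epcam cells of 4T1, the 199 cells with a Hoxa10 UMI had Hoxa5 at 38.2 CPM against 24.3 CPM in the rest (ratio 1.57, interval 1.25 to 1.95), whereas Hoxa7 was at 11 and 11.1 CPM (ratio 0.995, 0.653 to 1.47). The 198 cells with a Hoxa7 UMI had Hoxa5 at 28.6 against 25.9 CPM (1.11, 0.860 to 1.41). In BRCA1-null B the 228 Epcam cells with a Hoxa7 UMI had Hoxa5 at 12.5 against 3.65 CPM (3.44, 2.42 to 4.88). Cells with a UMI were also deeper (median 13080 against 10937 UMIs for Hoxa10, and 20834 against 12594 UMIs for Hoxa7 in BRCA1-null B). The difference between the tumors was not tested, and these divisions were chosen after the values had been seen.

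Hoxd3os1, a noncoding RNA of HoxD, stood at 1.68 CPM in 4T1 and 1.08 CPM in BRCA1-null A, although no Hoxd3 UMI was counted in any library. Cdx2, which opens the clusters at the tail end of the embryo, was listed at 0 in every library except Neu B, at 0.238 CPM, and the cofactor Meis1 was highest in 4T1, at 13.3 CPM.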
